A study of Homo sapiens with 8 samples.

Results

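A set of 10 genes of transforming growth factor beta (TGF-beta) signalling were followed in oligodendrocyte progenitor cells (OPCs) grown on different coatings. The genes were listed by name and not by a cutoff on their values, but with earlier results of these data known. They comprise the ligands TGFB1, TGFB2, TGFB3 and INHBA, the receptors TGFBR1 and TGFBR2, the latency protein LTBP1, and SMAD7, SKIL and TGFBI, which the pathway is known to induce. All 10 passed the filter on low counts, among the 18201 genes tested and the 58217 genes with a matched transcript.

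The OPCs came from the H9 line of human embryonic stem cells, an established line, and no SOX10 was overexpressed in the sequenced cells. They were kept for 2 days on Matrigel (the control), on recombinant vitronectin (VN) or on VNP2, a designed peptide with the RGD motif of vitronectin that was joined to a mussel adhesive protein. Matrigel is a basement membrane extract of a mouse tumour that also holds growth factors, whereas VN is a single defined protein. Polyadenylated RNA was sequenced from 2 Matrigel libraries (replicates 2 and 3), 3 VN libraries and 3 VNP2 libraries. All libraries come from 1 cell line, and the kinase inhibitors SB431542, which blocks TGF-beta and activin receptors, and LDN193189, which blocks BMP receptors, belonged to the neural induction medium used earlier in the differentiation of every group. The study's methods state in general terms that experiments were repeated, but no source used here ties the numbered libraries to separate cultures, so the p-values measure only the spread between these samples, which may be technical.

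The 8 libraries held between 37997896 and 39429453 estimated counts. VN replicate 1 stood apart: its median chi-square against the other VN replicates was 2.03 and 1.98, where the pairs within the other groups and the remaining VN pair gave 1.17 to 1.24 and sampling alone gives 0.455. Of the OPC markers, OLIG1, OLIG2, NKX2-2, PDGFRA and CSPG4 were measured in every group, with a summed level of 107 to 109 TPM (a level scaled to transcript length and to the total of the library) on Matrigel, 136 to 138 on VN and 138 to 145 on VNP2. SOX10, a defining gene of the lineage, had 20 estimated counts over all libraries and was at 0 on Matrigel.

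TGF-beta ligands are secreted as latent complexes, in which a propeptide masks the ligand and a latent TGF-beta binding protein such as LTBP1 ties it to the extracellular matrix. Integrins or proteases release the ligand, which then joins the type II receptor TGFBR2 to the type I receptor TGFBR1, and the activated receptor phosphorylates SMAD2 and SMAD3. SMAD7 is an inhibitory SMAD made in response to the signal, and SKIL (SnoN) is a corepressor that restrains SMAD2 and SMAD3. In the oligodendrocyte lineage, TGF-beta ligands are known for effects on the exit of progenitors from the cell cycle and on their maturation.

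The ligand and matrix genes were lower on VN and VNP2 than on Matrigel, except that TGFB3 was not called on VN, whereas no difference was called for the receptors, SMAD7 and SKIL. TGFB2 fell the most, to 37.98% of its Matrigel level on VN and to 41.4% on VNP2, and INHBA fell to 43.2% and 43.9%. TGFB1 and TGFBI fell to between 68.9% and 76.5%. Across the 3 substrates, 6 of the 10 genes were called (TGFB1, TGFB2, TGFB3, LTBP1, TGFBI and INHBA), where 19.3% of all tested genes were called by the edgeR quasi-likelihood test at a Benjamini-Hochberg adjusted p under 0.05. In the comparison of VN with Matrigel, 5 of the 10 were called lower and 0 higher, against 9.60% and 5.66% of all tested genes (15.3% in either direction). For VNP2 against Matrigel, 6 were called lower and 0 higher, against 9.13% and 7.44% (16.6% in either direction). Between VNP2 and VN only LTBP1 was called, as higher on VNP2, where 5.10% of all tested genes were called in either direction, 3.09% as higher and 2.01% as lower. The libraries of VN and Matrigel did not overlap for 7 of the 10 genes, all lower on VN, where 44.4% of all tested genes did not overlap, 23.3% lower and 21.1% higher. For VNP2 against Matrigel they did not overlap for 7 genes, 6 lower and 1 (TGFBR1) higher, against 48.1% of all genes, 25.1% lower and 23.0% higher. For VNP2 against VN they did not overlap for 4 genes, with TGFB3 and TGFBI lower and TGFBR2 and LTBP1 higher, against 23.6%, 10.9% lower and 12.7% higher. VN and VNP2 were each compared with the same 2 Matrigel libraries, so the counts against Matrigel are not independent of each other. Without VN replicate 1, the counts were 6 across the substrates, 5 lower on VN, 6 lower on VNP2 and 2 between VNP2 and VN.

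The median log2 fold change of the 10 genes was -0.33 on VN and -0.35 on VNP2 against Matrigel, and 0.03 between VNP2 and VN. Over all 18201 genes the medians were 0.004, 0.002 and 0.001. In RNA from bulk cultures, fewer cells of a type that expresses a gene and less RNA of that gene per cell cannot be told apart.

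**Figure D1:**
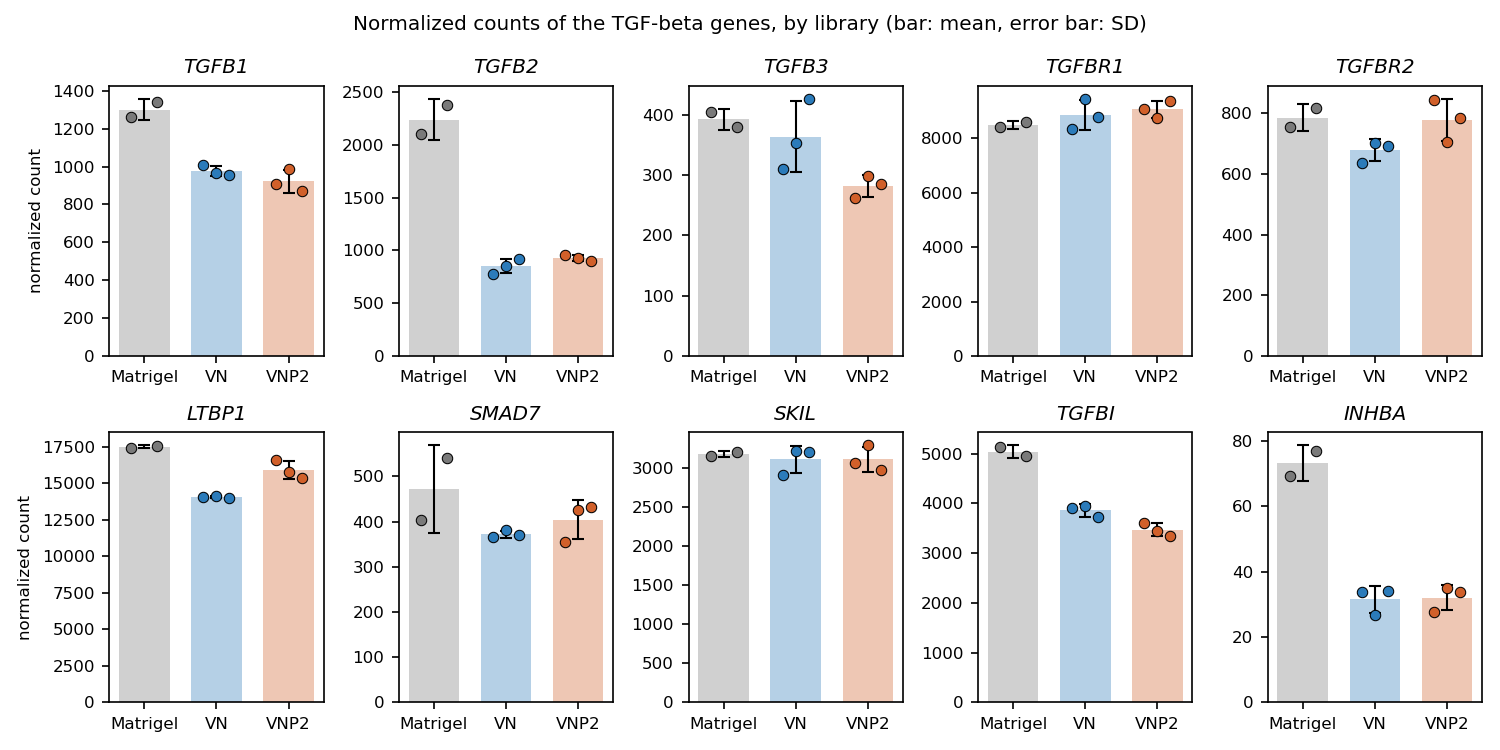
Normalized counts (counts after correction for library size and transcript length) of the 10 genes on the y axis, by substrate on the x axis; each point is 1 library, bars are means and error bars the SD over 2 Matrigel, 3 VN and 3 VNP2 libraries. The Matrigel points of TGFB1, TGFB2, TGFBI and INHBA lie above every VN and VNP2 point, whereas those of TGFBR1, TGFBR2 and SKIL lie among or close to them.

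The reference promoters of 4 of the genes are shown to give the sequence around the starts of the ligands that fell the most (TGFB2 and INHBA), of the ligand with the best known latency pathway (TGFB1) and of the gene that differed between VNP2 and VN (LTBP1). Each is a window of 300 bases from RefSeq (GRCh38.p14), 250 before and 50 after an annotated start, written 5′ to 3′ on the strand of the gene. Capitals mark the SMAD box, CAGAC on either strand (GTCTG when read on the other strand), a short element that SMAD3 and SMAD4 are known to bind. The TGFB2 window is chr1:218345086-218345385 (plus strand) and lies upstream of its main transcript in these data, which starts 899 bases after the RefSeq start. The others are chr7:41703041-41703340 (INHBA, minus strand), chr19:41353873-41354172 (TGFB1, minus strand) and chr2:32946703-32947002 (LTBP1, plus strand).
TGFB2 promoter: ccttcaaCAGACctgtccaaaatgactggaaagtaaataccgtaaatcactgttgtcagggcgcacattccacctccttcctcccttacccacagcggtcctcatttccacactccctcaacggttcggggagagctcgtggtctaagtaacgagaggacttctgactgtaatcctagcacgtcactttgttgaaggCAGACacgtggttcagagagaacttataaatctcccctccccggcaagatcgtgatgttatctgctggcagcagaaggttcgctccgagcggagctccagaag
INHBA promoter: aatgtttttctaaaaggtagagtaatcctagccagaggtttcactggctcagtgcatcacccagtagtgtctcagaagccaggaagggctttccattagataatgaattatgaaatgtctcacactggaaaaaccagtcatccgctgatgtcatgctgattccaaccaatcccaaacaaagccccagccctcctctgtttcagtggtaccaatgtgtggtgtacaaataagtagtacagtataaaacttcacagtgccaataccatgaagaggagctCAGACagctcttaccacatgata
TGFB1 promoter: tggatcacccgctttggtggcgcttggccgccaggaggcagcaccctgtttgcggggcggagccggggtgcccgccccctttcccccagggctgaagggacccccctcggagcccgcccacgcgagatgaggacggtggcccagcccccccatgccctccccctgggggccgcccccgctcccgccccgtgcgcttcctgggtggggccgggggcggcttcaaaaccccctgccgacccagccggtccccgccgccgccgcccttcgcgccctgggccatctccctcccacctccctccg
LTBP1 promoter: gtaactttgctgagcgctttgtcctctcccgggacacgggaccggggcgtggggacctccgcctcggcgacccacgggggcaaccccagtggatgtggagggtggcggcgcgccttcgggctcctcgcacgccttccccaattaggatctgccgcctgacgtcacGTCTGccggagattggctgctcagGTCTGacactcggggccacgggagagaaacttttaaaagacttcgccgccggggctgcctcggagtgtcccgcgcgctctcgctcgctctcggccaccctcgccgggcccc

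The TGFB2 and LTBP1 windows held 2 SMAD boxes each, the INHBA window held 1 and the TGFB1 window held 0. RefSeq gave 23 windows for the 10 genes, and 13 of them held at least 1 box, where 45.3% of all 35116 promoter windows of this length did. The palindrome GTCTAGAC was in 0 of the 23 windows and in 0.202% of all windows. The AP-1 site (TGACTCA or TGAGTCA) was in 1 window, that of TGFBR2, and in 4.95% of all. The TEAD site (GGAATG or CATTCC) was in 2, those of TGFB2 and TGFBR1, and in 14.0% of all. The core of the cAMP response element (TGACGT or ACGTCA) was in 4, those of TGFB2, TGFB3, LTBP1 and SKIL, and in 7.98% of all, and its 2 matches in the LTBP1 window overlap each other. These are matches of letters in the reference genome, with no measurement of binding.

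TGFB2 (chr1:218346235-218444619, plus strand) encodes a ligand that depends on the coreceptor betaglycan for tight binding to TGFBR2. Its normalized counts were 2102 and 2381 in the Matrigel libraries, 781, 855 and 916 in those of VN, and 955, 930.4 and 898 in those of VNP2. The lowest Matrigel library was more than 2 times the highest library of either other group, and VN and VNP2 overlapped. The log2 fold change was -1.40 (SE 0.0754, adjusted p = 1.35e-06, edgeR quasi-likelihood test) on VN and -1.27 (SE 0.0754, adjusted p = 1.56e-06) on VNP2. The difference between VNP2 and VN was 0.13 on the log2 scale (95% interval -0.03 to 0.28, adjusted p = 0.377 by edgeR). TGFB2 ranked 67 of 18201 genes in the test across the substrates.

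TGFB1 (chr19:41301587-41353911, minus strand) encodes the most widely expressed ligand. Its normalized counts were 1261 and 1341 for Matrigel, 1006, 968 and 953 for VN, and 905, 989 and 869 for VNP2. Both Matrigel libraries were above all others, and the 2 vitronectin-based substrates overlapped. The log2 fold change was -0.41 on VN (SE 0.0667, adjusted p = 0.00236) and -0.50 on VNP2 (SE 0.0667, adjusted p = 0.000522, both edgeR). Between VNP2 and VN it was -0.08 (95% interval -0.22 to 0.05).

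TGFB3 (chr14:75958099-75982991, minus strand), the remaining TGF-beta ligand, behaved otherwise in normalized counts. Its normalized counts were 404 and 380.0 for Matrigel, 309.6, 353 and 426 for VN, and 261, 298 and 286 for VNP2. In these counts the VN libraries spread over the whole Matrigel range, and the VNP2 libraries were below all others. The estimated counts, before correction for library size and transcript length, did not overlap between VN and Matrigel. They were 404 and 389 for Matrigel, 347, 325 and 351 for VN, and 285, 278 and 310 for VNP2. The share of the main transcript, TGFB3-201, was 61.7, 44.8 and 42.3% in the VN libraries. TGFB3 was called lower on VNP2 than on Matrigel, with a log2 fold change of -0.48 (SE 0.127, adjusted p = 0.0269, edgeR), and not on VN (-0.12, adjusted p = 0.590). The VNP2 call was lost without Matrigel replicate 2 (adjusted p = 0.168), Matrigel replicate 3 (0.0948), VNP2 replicate 1 (0.0836) or VNP2 replicate 3 (0.0671), and the call across the substrates (adjusted p = 0.0414) was lost in 6 of the 8 fits that left out 1 library. VNP2 and VN differed by -0.36 on the log2 scale (adjusted p = 0.113, edgeR) and, without VN replicate 1, by -0.47 (adjusted p = 0.0246). Without length offsets TGFB3 was also called lower on VN (-0.25, adjusted p = 0.0478).

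INHBA (chr7:41667168-41705834, minus strand) encodes the beta A subunit of the activins, which act through SMAD2 and SMAD3 as TGF-beta does but through other receptors. It was by far the weakest of the 10, with normalized counts of 69.3 and 77.1 for Matrigel, 33.9, 26.8 and 34.1 for VN, and 27.6, 34.9 and 33.7 for VNP2. The Matrigel libraries lay clear of the others, and VN and VNP2 overlapped fully. The log2 fold change was -1.21 on VN (SE 0.217, adjusted p = 0.00449) and -1.19 on VNP2 (SE 0.217, adjusted p = 0.00385, both edgeR). The call across the substrates was lost without Matrigel replicate 3 (adjusted p = 0.0517). The interval for VNP2 against VN ran from -0.44 to 0.49 on the log2 scale, so at this depth a difference of that size between them was not detectable.

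LTBP1 (chr2:32946972-33399509, plus strand) had the highest level per length of the 10. Its normalized counts were 17430.3 and 17564 in the Matrigel libraries, 14058, 14112 and 14008 in those of VN, and 16568, 15798 and 15360.5 in those of VNP2. The 3 groups did not overlap, with VN lowest and VNP2 between VN and Matrigel. VN was lower than Matrigel by a log2 fold change of -0.32 (SE 0.0360, adjusted p = 0.000245, edgeR). VNP2 was lower than Matrigel by -0.14 (SE 0.0360, adjusted p = 0.0256) and higher than VN by 0.18 (SE 0.0324, adjusted p = 0.0102). The difference from VN kept its call in all 8 fits that left out 1 library, with adjusted p-values from 0.0101 to 0.0438, and was lost without length offsets (0.13, adjusted p = 0.0584). The difference of VNP2 from Matrigel lost its call without Matrigel replicate 2 (adjusted p = 0.129), Matrigel replicate 3 (0.150), VNP2 replicate 2 (0.0741) or VNP2 replicate 3 (0.107).

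LTBP1 is read from an upstream start, which gives the long form of the protein, and from starts further into the gene. The transcript with the upstream start, LTBP1-203, took 41.5 to 43.8% of the TPM of the gene in every library. Its level was 78.5 and 76.2 TPM in the Matrigel libraries, 62.6, 66.4 and 67.7 in those of VN, and 75.2, 72.8 and 71.2 in those of VNP2. All other LTBP1 transcripts together had 101 and 106 TPM for Matrigel, 88.2, 89.1 and 86.8 for VN, and 103, 97.8 and 95.4 for VNP2. Both sums were lowest in the VN libraries. Within the second sum, the transcript annotated from position 33134597 of chromosome 2 was higher in each VN and VNP2 library than in both Matrigel libraries, with 11.1 and 11.96 TPM in the Matrigel libraries, 18.3, 20.7 and 12.7 in those of VN, and 13.8, 13.4 and 14.5 in those of VNP2. The main transcript's share was compared over the substrates for the 8 genes with a second transcript of at least 10% of the TPM, by an exact one-sided permutation test over all 560 assignments of the libraries. It was called in 0 of 8 genes (all adjusted p = 0.954), also 0 at an unadjusted p under 0.05, and the smallest p that this design allows is 0.00357.

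Neither receptor was called in any comparison. TGFBR1 (chr9:99104038-99154192, plus strand), the type I receptor kinase, had normalized counts of 8407 and 8614 for Matrigel, 8352, 9456 and 8800.5 for VN, and 9068, 8752 and 9386 for VNP2. VN overlapped both other groups, whereas the VNP2 libraries lay just above Matrigel, and the log2 fold changes against Matrigel were 0.06 (95% interval -0.06 to 0.17, adjusted p = 0.490) on VN and 0.09 (-0.02 to 0.21, adjusted p = 0.282, both edgeR) on VNP2.

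TGFBR2 (chr3:30606502-30694142, plus strand), the type II receptor kinase, had normalized counts of 755 and 817 for Matrigel, 637, 704 and 693 for VN, and 845, 707 and 783 for VNP2. In these counts the VN libraries were below both other groups without overlap. In the authors' normalized counts, VN (649, 687 and 784) overlapped VNP2 (829, 759 and 769) and was below Matrigel (810 and 814). The log2 fold change of TGFBR2 on VN was -0.21 (95% interval -0.40 to -0.02, adjusted p = 0.124, edgeR), and on VNP2 it was -0.01 (-0.20 to 0.18). TGFBR2 differed most from the authors' normalized table, with a mean 0.974 times that of the table, while the other 9 genes were at 1.005 times.

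SMAD7 (chr18:48919853-48952052, minus strand) had normalized counts of 403 and 540.2 for Matrigel, 366, 381 and 369.8 for VN, and 356, 425 and 433 for VNP2. The VN libraries were all below Matrigel, but the Matrigel libraries lay further apart than those of any other group, with an SD of 97.4 against 7.71 on VN. Their estimated counts, before correction for library size and transcript length, were closer together, at 415 and 448. The share of the main transcript, SMAD7-201, was 68.7 and 48.3% in these 2 libraries. The log2 fold change of SMAD7 was -0.34 on VN (95% interval -0.62 to -0.05, adjusted p = 0.105, edgeR) and -0.22 on VNP2 (-0.50 to 0.07, adjusted p = 0.301). Without Matrigel replicate 2, the lower of the pair, the difference on VN was called (-0.53, adjusted p = 0.0352), and without Matrigel replicate 3 that on VNP2 was 0.0077.

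SKIL (chr3:170357678-170396835, plus strand) was the flattest of the 10 genes, with normalized counts of 3154 and 3210.3 for Matrigel, 2914, 3212 and 3209 for VN, and 3065, 3289.6 and 2975 for VNP2. All groups overlapped. The log2 fold change was -0.03 on each, with 95% intervals of -0.16 to 0.09 on both VN and VNP2.

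TGFBI (chr5:136028895-136063818, plus strand) encodes a secreted matrix protein that binds collagens and integrins and that was named for its induction by TGF-beta. Its normalized counts were 5129 and 4955 for Matrigel, 3916, 3944 and 3716 for VN, and 3613, 3453 and 3352 for VNP2. The 3 groups did not overlap, in the order Matrigel, VN, VNP2. The log2 fold change was -0.39 on VN (SE 0.0450, adjusted p = 0.000280) and -0.54 on VNP2 (SE 0.0450, adjusted p = 1.89e-05, both edgeR). VNP2 was lower than VN by -0.15 (adjusted p = 0.0649), which was called by DESeq2 (adjusted p = 0.0202), without the filter on low counts (0.0488) and with the replicate number as a block (0.0306).

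**Figure D2:**
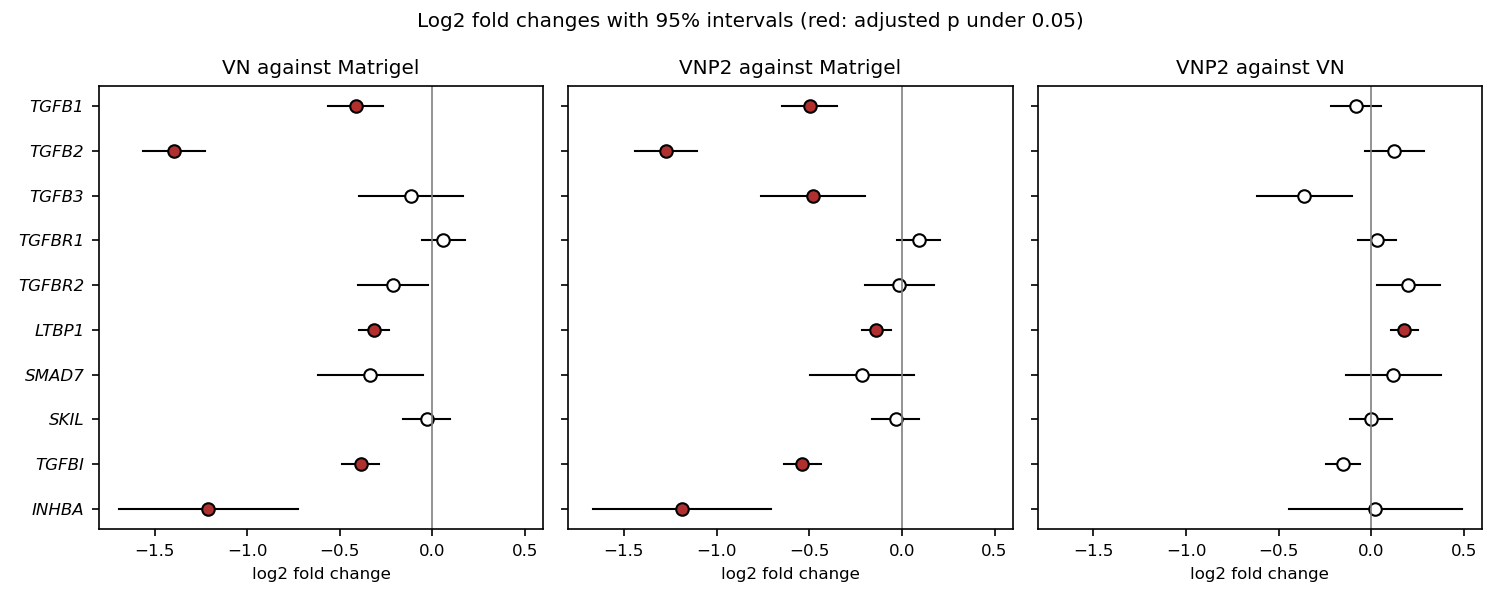
Log2 fold change of each gene on the x axis, with its 95% interval as a line, for VN against Matrigel, VNP2 against Matrigel and VNP2 against VN; red points have an adjusted p under 0.05. TGFB2 and INHBA lie near -1.2 to -1.4 in both comparisons with Matrigel, and only LTBP1 is red between VNP2 and VN.

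Levels of different genes were compared per length, in TPM summed over the transcripts of each gene. LTBP1 was highest in every group, at 180 ± 1.87 (SD, n = 2) on Matrigel, 154 ± 2.50 (n = 3) on VN and 172 ± 6.05 (n = 3) on VNP2. TGFBR1 followed at 103 to 115, then TGFBI at 54.1 to 74.9 and SKIL at 34.7 to 35.9 (group means). The receptors were thus unequal, since TGFBR2 had group means of only 7.24 to 8.22 TPM.

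The order of the ligands per length changed with the substrate. On Matrigel, TGFB2 (26.2 ± 2.43 TPM, SD, n = 2) and TGFB1 (23.5 ± 1.13) lay close together, and their libraries were separated by a narrow margin, with 24.5 TPM in the lower TGFB2 library and 24.3 in the higher TGFB1 library. On VN, TGFB1 (18.7 ± 0.253, n = 3) was above TGFB2 (10.5 ± 0.989) and TGFB3 (9.05 ± 1.58), and the libraries of TGFB2 and TGFB3 overlapped. On VNP2 the order was TGFB1 (17.4 ± 1.15), TGFB2 (11.4 ± 0.315) and TGFB3 (6.94 ± 0.474), without overlap. INHBA was last in each group, at 0.663 on Matrigel and 0.303 and 0.305 on VN and VNP2. TGFBR2, SMAD7 and TGFB3 lay close together at the lower end, at 5.97 to 9.21 TPM (group means).

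**Figure D3:**
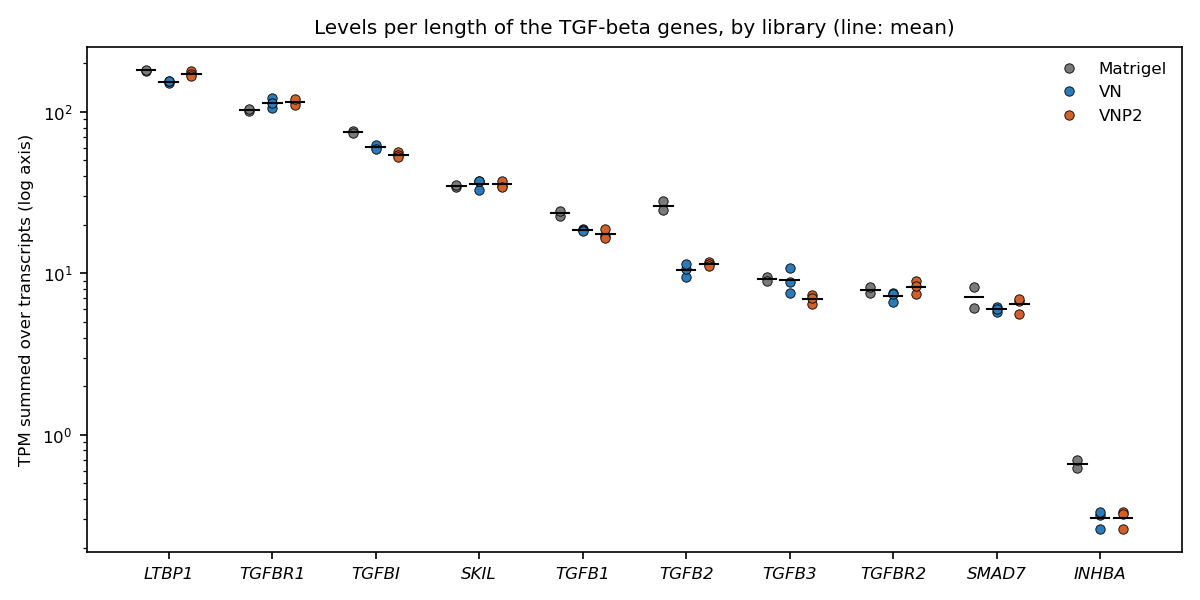
Level per length (TPM, log axis) of the 10 genes, ordered by their mean, with 1 point per library and a line at each group mean. LTBP1 leads at 154 to 180 TPM, INHBA lies below 1 TPM, and TGFB2 is the gene whose Matrigel points rise from the range of the lower genes to that of TGFB1.

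The genes whose normalized counts ran most closely with those of the called genes were found by Pearson's r over the 8 libraries, among 13001 tested genes with a mean of at least 100. They are a description, since points within a group share a substrate and the substrate differences carry the correlation. For TGFB2 they were ANXA1 (r = 0.995), BHLHE40 (0.994) and MYOF (0.993). For TGFB1 they were CREB3L1, BTG3 and SDC4 (0.985 to 0.997), and for TGFBI they were ANXA5, PKP2 and CSRP2 (0.993 to 0.997). For LTBP1, with its intermediate level on VNP2, they were ELK3, GNG12 and S1PR3 (0.986 to 0.988). TGFB3 was most like B3GNT5, VIRMA and TMEM65 (0.965 to 0.986), and INHBA was most like YDJC, RUSC2 and LLPH (0.984 to 0.987).

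Other genes of the pathway were read from fixed lists. In the counts for these lists and for the cell type markers below, genes that fell or rose are those called. Of all tested genes, 9.60% were called lower and 5.66% higher on VN than on Matrigel, and 9.13% and 7.44% on VNP2. Of 20 genes widely described as induced by TGF-beta, all were tested, 14 fell and 1 rose (VN against Matrigel), and 15 fell and 2 rose for VNP2. Their median log2 fold change was -0.74 on VN and -0.45 on VNP2, and their summed level was 3153 to 3207 TPM for Matrigel, 1612 to 1649 for VN and 1497 to 1607 for VNP2. Many of these genes are also known as targets of SRF or YAP, which respond to adhesion and the actin cytoskeleton, and which input moved them was not tested. With 1 library left out, the count of lower genes was 11 to 15 for VN and 12 to 15 for VNP2.

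TAGLN, TPM1, CCN2, CDKN1A and FN1 had the lowest adjusted p of that list across the substrates (edgeR). They were not chosen by the size of their change, and other genes of the list moved further than some of them. All but CDKN1A encode actin-linked or matrix proteins. TAGLN, an actin-binding protein of contractile cells, fell from a mean of 14192 normalized counts to 3269 (VN) and 2897 (VNP2), log2 fold changes of -2.12 (SE 0.0915) and -2.29 (SE 0.0918). TPM1, a tropomyosin, fell (log2 fold changes of -1.12 and -1.45), as did CCN2, a matricellular growth factor (-1.33 and -0.96). The mean of TPM1 was 0.952 times that in the authors' normalized table, below the 1.005 of the other genes named from that list. CDKN1A, the cell cycle inhibitor p21, fell as well (-0.86 and -0.93). FN1, fibronectin, was the gene called higher on VN (0.38) and it was called lower on VNP2 (-0.35), with a difference of -0.72 between VNP2 and VN (adjusted p = 3.53e-06, edgeR). BGN, a proteoglycan, and SNAI1, a transcription factor of mesenchymal transition, were the genes called higher on VNP2 and were named after their values were seen (0.31 and 0.59). SNAI1 had a mean of 80.6 normalized counts and an adjusted p of 0.0446 (edgeR). Fits without a Matrigel library are left aside in the next counts. Among the fits that left out a VN or VNP2 library, the count of higher genes on VNP2 was 1 without VN replicate 2, VN replicate 3, VNP2 replicate 1 or VNP2 replicate 2. It was 2 without VN replicate 1 or VNP2 replicate 3.

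Genes that store or release the ligand moved in both directions. Of 13, 12 were tested, of which 4 fell and 1 rose in the VN comparison, and 3 fell and 2 rose in that of VNP2. THBS1, which can activate latent TGF-beta, fell (-1.06 for VN, -1.42 for VNP2) and was lower on VNP2 than on VN (-0.35, adjusted p = 0.00167, edgeR). FURIN, a protease that cleaves the ligand precursors, fell (-0.30 and -0.36), and ITGAV, the integrin alpha subunit that binds the latency peptide, fell too (-0.32 and -0.28). FBN2, a microfibril protein, fell on VN (-0.20) and was at 0.02 on VNP2, while EMILIN1 was called higher on VNP2 (0.40, adjusted p = 0.0158). The higher calls of this list on VNP2 were 0 without Matrigel replicate 3 or VNP2 replicate 1, and those on VN were 0 without Matrigel replicate 2 or Matrigel replicate 3 and 2 without VN replicate 2. ITGB6, the beta subunit of an activating integrin of epithelia, had 0 counts in all libraries.

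Further receptors and coreceptors showed no common direction. Of 10, 9 were tested (ACVRL1 had too few counts), of which 1 fell and 1 rose in the VN comparison, and 1 fell and 2 rose in that of VNP2. TDGF1, named after its values were seen, was the gene called lower on VNP2 (-1.50, adjusted p = 0.0142, edgeR). It was at 0.94 on VN without a call, with a mean of 49.7 normalized counts. It is also in the list of pluripotency markers below, so that call is counted in both lists. TGFBR3, the coreceptor betaglycan, was called higher on VNP2 than on Matrigel (0.45, adjusted p = 0.00961, edgeR) and than on VN (0.44, adjusted p = 0.0161). BAMBI, a decoy receptor, was lower on VN (-0.33) and at 0.02 on VNP2. ACVR2B, an activin type II receptor, was called slightly higher on both (0.17 and 0.14), while ACVR2A (0.16 and 0.17) and ACVR1 (-0.20 and -0.17) were not called. Without Matrigel replicate 2, 0 of these receptors were called in either comparison, and without Matrigel replicate 3 the only call was 1 lower on VNP2; without other libraries the counts moved by at most 1 gene in each direction.

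In the activin and nodal branch, 8 of 10 genes were tested (INHBB and NODAL had too few counts), with 1 called lower on VN and 3 on VNP2. FST, the secreted follistatin that binds activin, fell (-0.64 on VN and -0.72 on VNP2), alongside INHBA. LEFTY2, a nodal antagonist, fell on VNP2 (-1.34, adjusted p = 0.000190, edgeR) and was at -0.36 on VN without a call. FSTL3 (-0.28 and -0.12) and GDF11 (0.09 and 0.06) were not called. Of 15 SMADs and regulators, 1 fell in the VN comparison, and 3 fell and 1 rose in that of VNP2. USP15, a deubiquitinase of the receptor and SMADs, fell (-0.25 on VN and -0.26 on VNP2), and SMURF1, a ubiquitin ligase, fell on VNP2 (-0.21). TGIF1, a corepressor, fell on VNP2 (-0.23), ZFYVE9, the adaptor SARA, rose there by 0.17, and SKI, a relative of SKIL, had 0.09 without a call. Without Matrigel replicate 2 or Matrigel replicate 3, 0 of the SMADs and regulators were called in both comparisons, and over all fits with 1 library left out 0 to 2 fell and 0 to 2 rose for VN, and 0 to 4 fell and 0 to 2 rose for VNP2. Without VN replicate 1, 2 genes of the activin branch were called lower on VN.

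**Figure D4:**
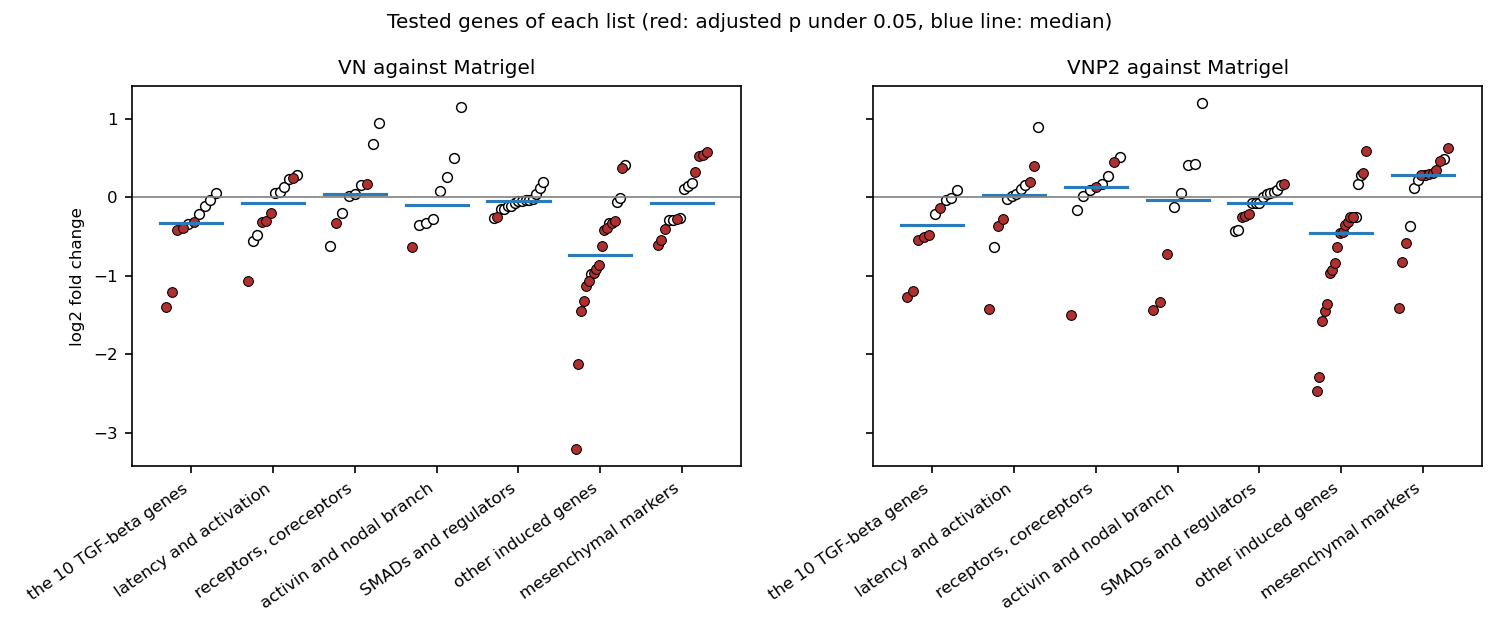
Log2 fold changes (y axis) of the tested genes in each list (x axis), for VN and VNP2 against Matrigel; each point is a gene, red points have an adjusted p under 0.05 and blue lines are medians. The other induced genes have the lowest medians, -0.74 and -0.45, whereas the SMADs and regulators gather around 0.

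Mesenchymal cells express several of these genes at high levels, and their markers were present. All 14 mesenchymal markers were tested, of which 4 rose and 4 fell in the VN comparison, and 6 rose and 3 fell in that of VNP2. Their summed level was 599 to 606 TPM on Matrigel, 665 to 697 on VN and 594 to 622 on VNP2. COL1A1 fell (log2 fold changes of -0.54 and -1.41) and so did COL5A1 (-0.28 and -0.82), whereas COL6A3 rose by 0.53 and 0.62, COL1A2 rose by 0.33 and 0.29, and COL3A1 rose on VNP2 (0.28). Without Matrigel replicate 2, 4 mesenchymal markers rose and 2 fell for VN, and without Matrigel replicate 3, 3 rose and 3 fell for VNP2. Of 8 neural crest markers, 6 were tested, of which 1 rose in the VN comparison, and 3 rose and 1 fell in that of VNP2; SOX9 rose by 0.45 and 0.37, NGFR rose on VNP2 (0.36), TFAP2A rose on VNP2 (0.999) and MITF fell there (-0.53). The lower call was lost without Matrigel replicate 2, VNP2 replicate 2 or VNP2 replicate 3, and 2 of these markers rose for VN without VN replicate 1, VNP2 replicate 2 or VNP2 replicate 3. PAX3 and FOXD3 were at 2 and 28 counts over all libraries. The part of either cell type in the changes of the TGF-beta genes was not tested.

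Of the 5 OPC markers tested, 2 were called higher on VN (OLIG1 at 0.30 and OLIG2 at 0.31) and 5 on VNP2 (0.23 to 0.66), and 0 lower. Without Matrigel replicate 2 these counts were 1 and 3, and without Matrigel replicate 3 they were 0 and 3. Of 5 neuron markers tested, 3 were called higher on VN and 2 on VNP2. STMN2 was at 0.50 and 0.72, SYN1 at 0.86 and 0.78, and MAP2 at 0.17 on VN. MAP2 on VNP2 (0.007) and TUBB3 on VN and VNP2 (-0.07 and -0.01) were not called. The summed level of the neuron markers was 817 to 857 TPM on Matrigel, 909 to 957 on VN and 941 to 951 on VNP2. Without VN replicate 1, 1 neuron marker was called lower on VN. Without Matrigel replicate 2 or Matrigel replicate 3, 1 neuron marker was higher in each comparison, as it was for VNP2 without VNP2 replicate 2 or VNP2 replicate 3. Of 5 pluripotency markers, 1 fell in the VN comparison, and 3 fell and 1 rose in that of VNP2; LIN28A fell (-0.56 and -0.67), POU5F1 fell on VNP2 (-1.26) and DPPA4 rose there (0.18), and the count of higher pluripotency markers on VNP2 was 0 in 6 of the 8 fits that left out 1 library, all but those without VN replicate 1 or VN replicate 3. For VN, 1 such marker rose without VNP2 replicate 2 or VNP2 replicate 3. Of 3 endothelial markers tested, 2 were lower on each, with TEK at -0.996 and -1.36, while KDR was not called; without Matrigel replicate 2, 1 was lower on each. The astrocyte markers GFAP and AQP4 had 42 and 27 counts over all libraries, and neither of the 2 astrocyte markers tested was called. The part of these cell types in the changes of the TGF-beta genes was not tested either.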

How the data were processed

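The authors trimmed adapters with Trim Galore and quantified transcripts with Salmon on GENCODE v32 (GRCh38.p13), per the study's methods and the submitters' processing notes. The deposited estimated counts and TPM are Salmon's values per transcript and library, not normalized between libraries. The authors also deposited normalized counts, a signal made with tximport and DESeq2 1.27.12 (23350 genes), used here for checks and 1 alternative. Of 226608 transcripts, 205225 matched GENCODE v29 by identifier and held 98.8 to 98.9% of the estimated counts, which were summed per gene and rounded.

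All 8 libraries entered 1 edgeR 4.0.16 quasi-likelihood fit (R 4.3.3, limma 3.58.1) with TMM, offsets for transcript length and filterByExpr (minimum count 10, total 15). The common dispersion was 0.00370. Tests were two-sided, Benjamini-Hochberg adjusted over 18201 genes, with calls at 0.05; SEs were derived from the fold change and its F statistic. Intervals cover the spread between libraries under that fit. Counting noise weighs most on genes with few counts, and INHBA had the widest intervals.

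The genes and lists were chosen with earlier results of these data known. Besides the 10 genes, each list gives at most 5 genes, those with the lowest adjusted p across the substrates at a mean normalized count of at least 100, plus absent markers; the most similar 3 genes are given for each called gene. Any other gene is said to have been singled out later. As alternatives served DESeq2 1.42.0, RLE, no length offsets, no filter, a minimum count of 50, a replicate block, only the pair's libraries, limma on the deposited normalized counts (log2, pseudocount 1), and each library left out. Other scripts used Python 3.11.15 and pandas 2.3.3. The edgeR fit was also run on simulated counts of 18201 genes, drawn from the mean normalized counts with the common dispersion for every gene. For VN against Matrigel, 181 of 200 changed genes and 14 unchanged ones were called there. Differences in spread between genes or libraries were not simulated. Matrigel replicate 1 was not analysed here. One gene of the induced list is counted but not reported by name here.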

Additional observations from a re-analysis of the deposited data

How the results depend on the processing

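Of 630 values of single genes under the alternatives, 592 kept their direction and their side of the threshold, 16 lost a call, 6 gained one and 16 changed sign. The count of called genes was 6 across the substrates, 5 on VN and 6 on VNP2 under DESeq2 and under RLE normalization. With each library left out in turn, it ranged from 4 to 6 across the substrates, 5 to 6 on VN, 4 to 6 on VNP2 and 1 to 2 between VNP2 and VN. Between VNP2 and VN it was 2 under DESeq2, 2 without the filter on low counts, 0 without length offsets, and 2 with the replicate block. Over all genes, the fits with 1 library left out called 1879 to 4975 genes across the substrates, 1188 to 3899 on VN, 1609 to 3608 on VNP2 and 547 to 1996 between VNP2 and VN. Each of these highest counts came without VN replicate 1, and the lowest came without Matrigel replicate 3 or, between VNP2 and VN, without VNP2 replicate 1. The cause was not tested.

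The signs that changed belonged to differences that were not called; the largest of them was SMAD7 on VNP2, at -0.22 with all libraries. Without length offsets, SKIL on VN was at 0.026, and between VNP2 and VN TGFBR1 was at -0.063 and INHBA at -0.031. With 1 library left out, SKIL ranged from -0.053 to 0.016 on VN, from -0.076 to 0.0011 on VNP2 and from -0.045 to 0.029 between them; TGFBR2 ranged from -0.076 to 0.051 and SMAD7 from -0.41 to 0.0077 on VNP2, and TGFBR1 from -0.0081 to 0.081 and INHBA from -0.086 to 0.12 between VNP2 and VN. The direction split of all calls moved by less than 10 percentage points under every scaling. The order of the substrates by TPM and by the authors' normalized counts was the same for 8 of the 10 genes, and differed for TGFBR2 and SKIL.

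Whether the replicate numbers pair the samples could not be settled. Deviations from the group means correlated between -0.133 and 0.161 for same-numbered libraries, and VN replicate 1 correlated best with VNP2 replicate 3 (0.208). The 2 Matrigel libraries deviate from their mean by equal and opposite amounts, so their correlations mirror each other. With the replicate number as a block, 3992 genes were called across the substrates, 3389 on VN, 3170 on VNP2 and 1146 between VNP2 and VN, and 6, 5, 6 and 2 of the TGF-beta genes. The block changed no other call among the TGF-beta genes than that of TGFBI between VNP2 and VN. Depth limits INHBA most, at 26.8 to 77.1 normalized counts.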

Other observations

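Several of the genes overlap others in the annotation, and the library kit keeps strand, although how strand was used in quantification is not given in the sources used here. TGFB2-OT1, a noncoding transcript on the same strand at the end of TGFB2, had means of 5.75 TPM on Matrigel, 1.17 on VN and 0.864 on VNP2, from 321 estimated counts in total beside 9614 for TGFB2. On the opposite strand, HNRNPUL1 and CCDC97 overlap TGFB1, with means of 204, 218 and 217 TPM (HNRNPUL1) and of 27.8, 29.5 and 28.3 TPM (CCDC97) on Matrigel, VN and VNP2. IFT43 overlaps TGFB3, with 41.7, 43.2 and 42.5 TPM. The antisense RNAs INHBA-AS1 and TGFB3-AS1 had 6 and 5 estimated counts in all libraries together, and AC019127.1, antisense to LTBP1, had 1.

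Some transcripts without a full coding sequence in the annotation took sizeable shares of the TPM of their genes. TGFB2-203, a processed transcript, held 32.3% on average (22.6 to 40.4% over the libraries), the SMAD7 transcript with a retained intron held 27.6%, and a processed transcript of TGFB3 held 34.8%. TGFB1-201 and TGFBI-201, in contrast, held 97.0% and 96.5% of their genes.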
